A study of Homo sapiens with 4 samples.

Results

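The genes described here write, read and erase methylation of cytosine in DNA. They are 9 of the 28307 gene symbols in the count files, taken by name: DNMT1 and DNMT3A, the partner protein UHRF1, the methyl-CpG-binding domain genes MBD1, MBD2 and MBD3, and the oxidases TET1, TET2 and TET3. All 9 passed the filter on low counts.

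Polyadenylated RNA was sequenced (paired-end, 75 bp) from excitatory neurons made from the i3N line of WTC11, an established human induced pluripotent stem cell line. All 4 libraries come from cells that carry dCas9-KRAB, a nuclease-dead Cas9 joined to a repressor domain, under a CAG promoter in a CLYBL intron. The CRISPRi group (2 libraries) received guide RNAs against a transposable element of the MIR family on chromosome 11, for which the labels give both 47605296 to 47605575 and 47608036 to 47608220. The Control group (2 libraries) received the empty guide vector. In both groups lentivirus was added to neurons at 2 weeks of differentiation at a multiplicity of infection of about 3, puromycin was given at 0.5 μg/mL for 4 days and cells were collected 7 days after the virus. The labels call the replicates biologically independent but do not say which guide went into which library. The labels describe a single iPSC line, and the transcription of the element itself was not analysed here.

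In mammals DNMT3A places new methyl groups on CpG dinucleotides, and DNMT1 copies the pattern onto the new strand after replication, to which UHRF1 recruits it. MBD1 and MBD2 bind methylated CpG, while MBD3, which largely lacks that preference, is a core member of the NuRD remodelling and deacetylase complex. TET enzymes oxidise 5-methylcytosine, the first step of its removal. Neurons no longer divide, yet they keep DNMT1, carry abundant DNMT3A during maturation and are rich in the oxidised base 5-hydroxymethylcytosine.

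Control replicate 1 stands apart. It held 944993 counts, against 39325038 to 44839748 in the other 3 libraries, so that 1 count there equals 1.06 CPM (counts divided by the library's total and scaled by a constant) and 3 counts equal 3.17 CPM. Markers of neurons were present in every library: 12 of 12 pan-neuronal genes were tested, and their summed level was 21586 to 22405 CPM in the 3 deep libraries and 18854 CPM in control replicate 1. Dividing-cell markers were uneven: 18 S phase genes summed to 291 to 309 CPM in the deep libraries and 884 CPM in control replicate 1, and 15 mitosis genes to 86.2 to 93.8 CPM and 492 CPM. Of 12 glial and microglial markers SOX10 and AIF1 were at 0 in all 4 libraries, and the summed level ran from 28.3 to 32.6 CPM. Of 10 mesenchymal markers none was at 0 in all libraries, and they summed to 279 to 462 CPM. The highest sum was that of control replicate 1, where VIM (217 CPM) and THY1 (168 CPM) made up most of it. There 7 of the 10 lay below all 3 other libraries, 2 above, and 3 were at 0. The lowest sum was that of control replicate 2, where THY1 was at 66.5 CPM against 168 to 185 CPM elsewhere.

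The start regions of DNMT1, its partner UHRF1 and DNMT3A are shown because UHRF1 and DNMT1 on the one hand and DNMT3A on the other lay on opposite sides of the other libraries in control replicate 1. They were thus picked by these values. MBD3, also high there, and TET2, the lowest by ratio, are not shown, and the motif below had no match in their windows. Whether these letters bear on the levels was not tested. Each line holds 250 bases before and 50 bases after an annotated start, 5′ to 3′ on the gene's strand, from RefSeq on GRCh38.p14: chr19:4909251-4909550 (plus strand) for UHRF1, chr19:10194904-10195203 (minus strand) for DNMT1 and chr2:25342434-25342733 (minus strand) for DNMT3A. Capitals mark a match to 1 of 4 spellings of the E2F consensus, TTTCCCGC, TTTCGCGC, TTTGCCGC and TTTGGCGC, searched on both strands.
UHRF1: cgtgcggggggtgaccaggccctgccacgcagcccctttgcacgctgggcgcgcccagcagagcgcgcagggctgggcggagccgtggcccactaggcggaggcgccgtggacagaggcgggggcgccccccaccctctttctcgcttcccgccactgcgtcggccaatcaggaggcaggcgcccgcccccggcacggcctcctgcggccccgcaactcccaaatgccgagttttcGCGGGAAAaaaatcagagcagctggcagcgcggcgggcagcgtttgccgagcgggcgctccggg
DNMT1: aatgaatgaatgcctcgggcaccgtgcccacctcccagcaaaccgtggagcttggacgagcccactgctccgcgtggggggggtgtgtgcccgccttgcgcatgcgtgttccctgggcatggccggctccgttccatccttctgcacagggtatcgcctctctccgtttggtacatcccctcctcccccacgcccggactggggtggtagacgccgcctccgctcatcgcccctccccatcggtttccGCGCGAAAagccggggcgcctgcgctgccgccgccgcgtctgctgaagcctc
DNMT3A: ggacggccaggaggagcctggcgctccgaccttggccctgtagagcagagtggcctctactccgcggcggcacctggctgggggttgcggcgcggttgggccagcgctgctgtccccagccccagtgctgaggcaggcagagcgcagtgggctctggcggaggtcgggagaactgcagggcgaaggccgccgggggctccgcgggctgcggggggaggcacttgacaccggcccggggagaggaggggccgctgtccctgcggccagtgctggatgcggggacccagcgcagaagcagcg

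All 9 genes matched the promoter table, with 20 windows between them. A match lay in 3 of the 20 windows, 2 of the 3 UHRF1 windows and the DNMT1 window, and in 3.31% of all 300-base windows and 4.65% of those of tested genes. Some windows of a gene overlap, so they are not independent. Counted by gene, 2 of the 9 held a match, beside 6.38% of tested genes. A match is a description of letters and not a binding site, and its absence elsewhere says only that these letters are not in those windows. The CpG dinucleotide, on which the genes' products act, was also counted: the windows held 6 to 46 CpG (median 29, against 24 over the windows of tested genes and 14 over all windows), with TET1 lowest at 6 to 11 and DNMT3A and UHRF1 reaching 46.

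Levels were first compared between the genes per transcript length, as the FPKM values (counts scaled to transcript length and library total) that the authors deposited. DNMT3A stood highest in the 3 deep libraries, at 32.2 and 30.0 FPKM in the CRISPRi libraries and 28.9 FPKM in control replicate 2, which is percentile 86.1 of the tested genes. Then came MBD3 (22.5 ± 0.536 FPKM, mean ± SD, n = 3 deep libraries), MBD1 (20.8 ± 0.544), TET3 (20.1 ± 0.265) and DNMT1 (15.7 ± 0.562). MBD2 (6.03 ± 0.542 FPKM) and TET2 (5.99 ± 0.318) lay close to the median of tested genes, 5.29 FPKM. TET1 (2.38 ± 0.0689 FPKM) and UHRF1 (2.33 ± 0.0757) were lowest.

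Of the 8 neighbouring pairs in this order, MBD1 and TET3, MBD2 and TET2, and TET1 and UHRF1 overlapped across the 3 deep libraries. Their ranges therefore do not rank them. The other 5 pairs did not overlap there. Compared within each library, MBD1 lay above TET3 in 4 of 4, MBD2 above TET2 in 3 and TET1 above UHRF1 in 2. In control replicate 1 the order differed at the top and at the bottom: DNMT3A (28.2 FPKM) lay below MBD1 (31.0) and MBD3 (30.8), DNMT1 (21.8) lay above TET3 (18.6), and UHRF1 reached 8.70 FPKM, above MBD2 and TET2. Within families, TET3 made up 70.1% to 72.2% of the summed TET FPKM in every library. The ratio of DNMT3A to DNMT1 FPKM was 2.10 and 1.95 in the CRISPRi libraries, 1.77 in control replicate 2 and 1.29 in control replicate 1. DNMT3A thus lay above DNMT1 per length in the 3 deep libraries. In control replicate 1 they are not ranked, since DNMT3A had 104 counts and DNMT1 111, and the FPKM ratio there moved with the transcript length described next.

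**Figure D1:**
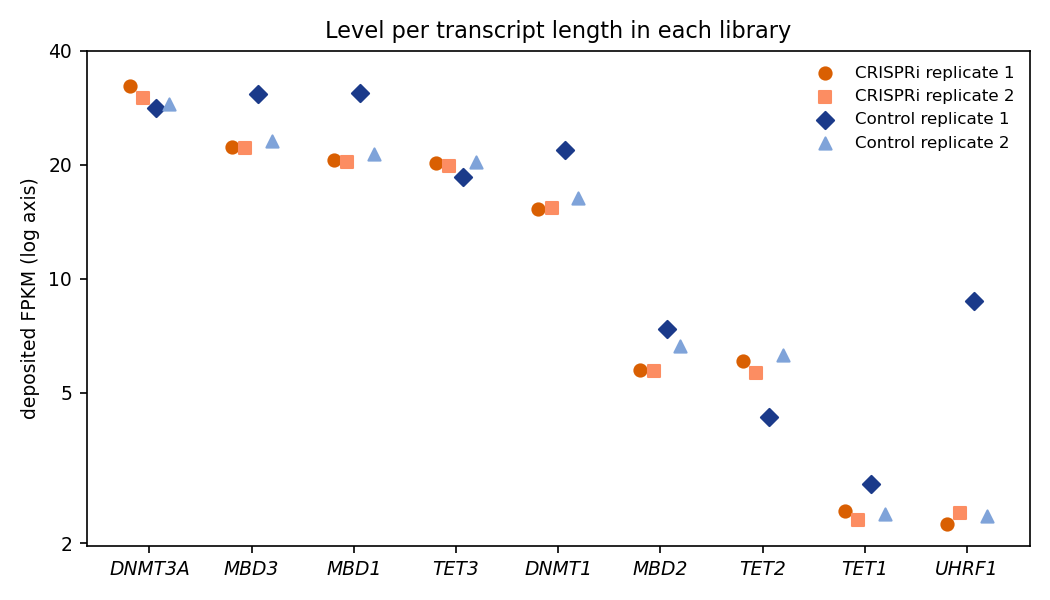
Deposited FPKM (log axis) of each gene in the 4 libraries, ordered by the mean of the 3 deep libraries, with 1 point per library. DNMT3A is highest and TET1 and UHRF1 lowest in the deep libraries, while control replicate 1 (diamonds) lies apart most for UHRF1, at 8.70 FPKM against 2.25 to 2.40.

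The FPKM values also rest on a transcript length, which differed between libraries for some genes. For MBD1 the files name 19 to 21 transcripts in each deep library but 8 in control replicate 1, and for DNMT3A 8 and 3. The transcript length implied by count and FPKM was also lower there. It went from 3.95 to 4.08 kb to 3.31 kb for MBD1 and from 4.78 to 4.98 kb to 3.90 kb for DNMT3A. Fewer transcripts were also named there for DNMT1 (2, against 3 to 4), UHRF1 (1, against 3 to 4), MBD3 and TET2 (1, against 2). Their implied lengths moved little, with DNMT1 between 5.37 and 5.38 kb and UHRF1 between 4.01 and 4.06 kb. The number of named transcripts thus does not account for the length by itself. Libraries are therefore compared below on counts scaled to CPM and not on FPKM.

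The study's own question was whether guides against the element altered gene expression relative to the empty vector. No writer, reader or eraser passed that test. edgeR's quasi-likelihood test called 0 of the 9 genes, with 0 at an unadjusted p under 0.05, and DESeq2 and limma-voom also called 0. Over all 15708 tested genes it called 0% higher and 0.0255% lower. Fold changes ran from -0.68 for UHRF1 to 0.19 for DNMT3A on the log2 scale (CRISPRi minus Control), and the edgeR adjusted p was 1 for each of the 9.

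DNMT1, the maintenance methyltransferase (chromosome 19, 10133346 to 10194953), measured 82.1 and 82.6 CPM in the CRISPRi libraries (replicates 1 and 2, in that order here and below), against 117 and 87.6 CPM with the empty vector. UHRF1, which reads hemimethylated DNA and brings DNMT1 to it (chromosome 19, 4903080 to 4962154), measured 9.08 and 9.60 CPM in CRISPRi, against 34.9 and 9.56 CPM with the empty vector. For both genes control replicate 1 was high and control replicate 2 lay close to CRISPRi. The log2 fold change was -0.21 for DNMT1 (SE 0.13, 95% confidence interval -0.53 to 0.10). For UHRF1 it was -0.68 (SE 0.57, interval -2.15 to 0.79), the widest interval of the 9. Without control replicate 1, which leaves control replicate 2 alone in its group with its spread taken from the CRISPRi pair, these values were -0.08 (interval -0.19 to 0.03) and -0.03 (interval -0.29 to 0.23). The level of UHRF1 in Control, 22.2 ± 17.9 CPM (mean ± SD, n = 2), thus rested on 1 library.

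DNMT3A, the de novo methyltransferase (chromosome 2, 25227874 to 25342590), measured 154 and 145 CPM in CRISPRi, against 110.1 and 144 CPM with the empty vector. Here control replicate 1 was the low library. The log2 fold change was 0.19 (SE 0.13, interval -0.12 to 0.51), and 0.06 (interval -0.06 to 0.19) without control replicate 1.

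Among the readers, MBD1 (chromosome 18, 50266885 to 50281767), which can recruit histone methylation to methylated CpG, measured 83.5 and 83.0 CPM in CRISPRi, against 103 and 84.4 CPM with the empty vector. MBD2 (chromosome 18, 54151606 to 54224669), the methyl-CpG-binding partner of NuRD, measured 18.2 and 17.2 CPM in CRISPRi, against 23.3 and 19.5 CPM with the empty vector. MBD3 (chromosome 19, 1573596 to 1592865) measured 128 and 127 CPM in CRISPRi, against 177 and 133 CPM with the empty vector. All 3 had both Control libraries above both CRISPRi libraries, as had 16.5% of all tested genes, and by little in control replicate 2. Their log2 fold changes were -0.09 (SE 0.10), -0.18 (SE 0.14) and -0.20 (SE 0.13). The division of reads is uncertain for MBD3, as 11.7% of its GENCODE exonic bases are shared with 2 other genes and no source used here gives the strand setting of the counting. DNMT1 shares 0.847% of its exonic bases and the other 7 genes none.

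Among the erasers, TET1 (chromosome 10, 68560337 to 68694487) measured 24.0 and 22.7 CPM in CRISPRi, against 28.6 and 23.6 CPM with the empty vector. TET2 (chromosome 4, 105145875 to 105279803), the TET enzyme without its own CXXC DNA-binding domain, measured 59.5 and 55.4 CPM in CRISPRi, against 42.3 and 61.5 CPM with the empty vector. TET3 (chromosome 2, 73983631 to 74135498) measured 238 and 232 CPM in CRISPRi, against 217 and 239 CPM with the empty vector. The groups overlapped for all 3 genes, and control replicate 1 was the highest library for TET1 and the lowest for TET2 and TET3. Log2 fold changes were -0.07 (SE 0.13), 0.03 (SE 0.15) and 0.04 (SE 0.09), and those of TET2 and TET3 turned to -0.09 and -0.02 without control replicate 1.

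**Figure D2:**
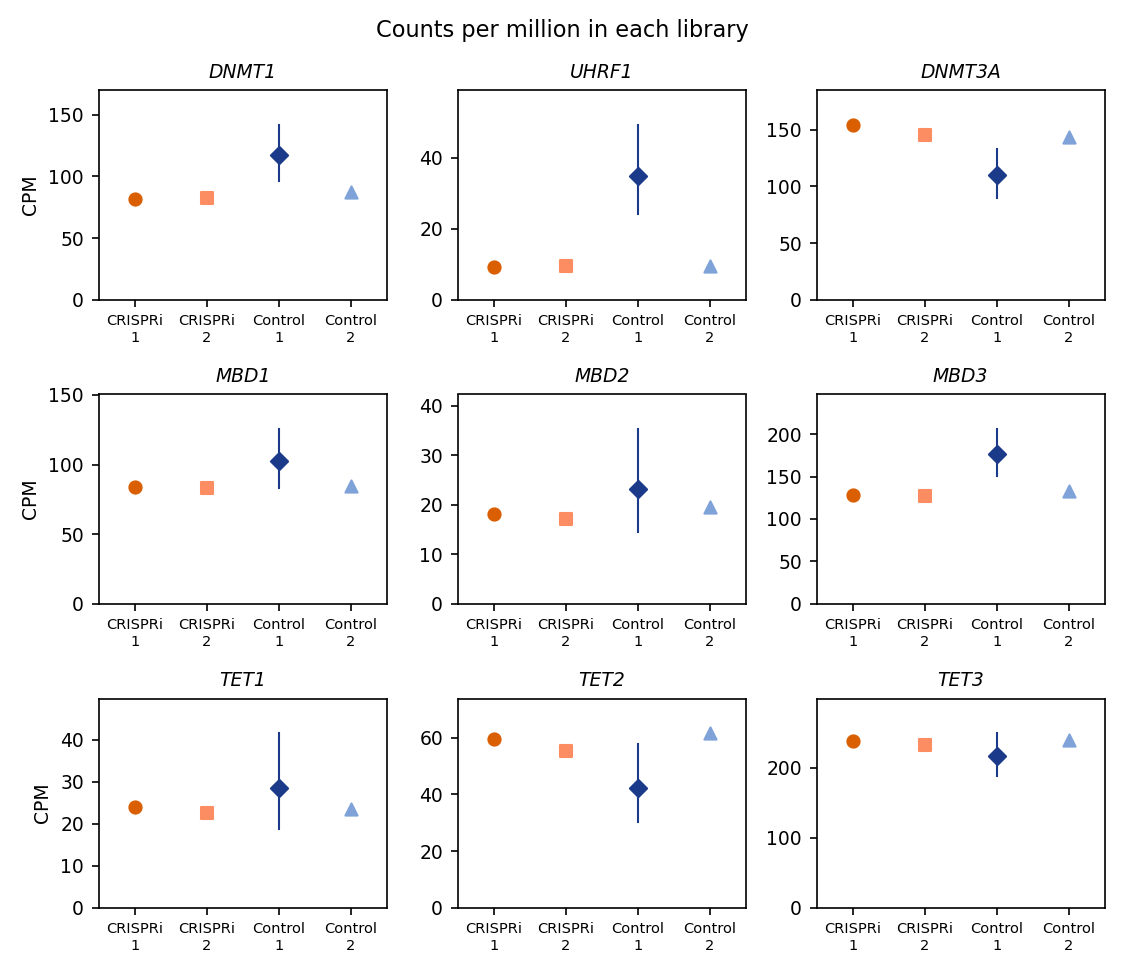
CPM of each gene in the 4 libraries, 1 panel per gene with an axis from 0; the bar on control replicate 1 is its exact Poisson 95% interval, which covers counting error only. The 3 deep libraries lie close together in each panel, and control replicate 1 is above them for 6 genes and below them for DNMT3A, TET2 and TET3.

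Counted over the genes, the groups did not overlap in CPM for 4 that were lower in CRISPRi (DNMT1, MBD1, MBD2 and MBD3), beside 16.5% of all tested genes, and for DNMT3A, which was higher, beside 17.8% of all tested genes. With all 4 libraries and group as the only term, the 95% interval lay within a 1.5-fold change either way for 8 of the 9, UHRF1 being the exception. This count depended on the fit. With replicate number added as a block, the interval of MBD2 ran from -0.76 to 0.30 on the log2 scale, past a 1.5-fold change. That of UHRF1 ran from -1.56 to -0.15 in the same fit and excluded 0. With either CRISPRi library left out, the intervals of DNMT1, TET1, MBD2, MBD3 and UHRF1 passed a 1.5-fold change. Without CRISPRi replicate 2, those of DNMT3A and TET2 did so too. Each such fit leaves 1 CRISPRi library alone in its group. Without control replicate 1 the interval lay within a 1.5-fold change for 9 of 9. That fit, in which control replicate 2 is assumed to vary like the CRISPRi libraries, called 0 of the 9, beside 0.437% of genes higher and 0.222% lower. Without control replicate 2, which leaves control replicate 1 alone in its group, edgeR called DNMT3A higher, beside 3.61% of genes, and DNMT1, MBD3 and UHRF1 lower, beside 4.97% of genes. Across the 3 deep libraries the highest level of a gene was 1.02 (MBD1) to 1.13 (MBD2) times its lowest.

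**Figure D3:**
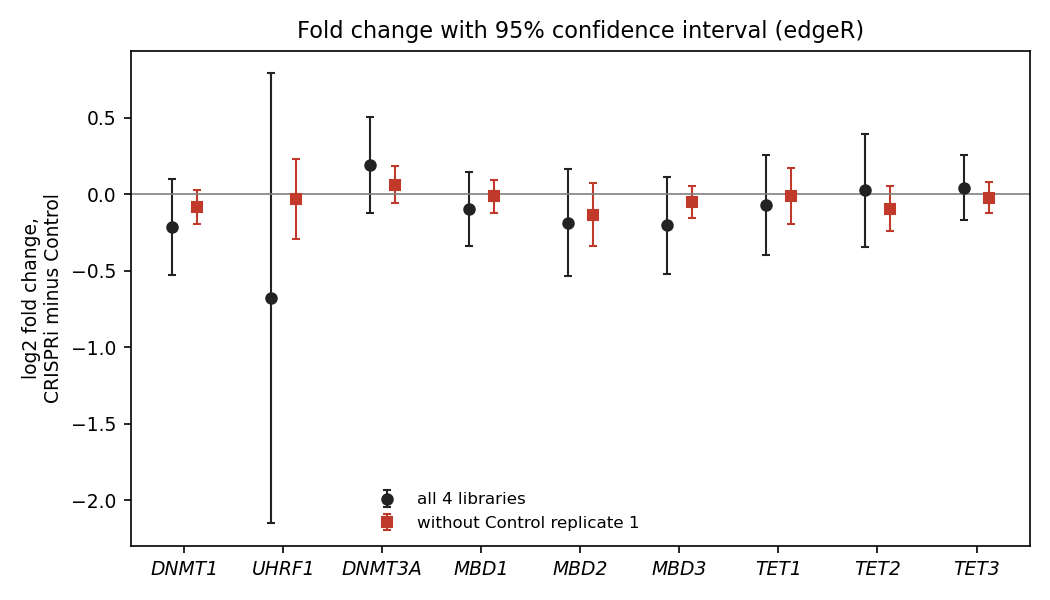
Log2 fold change of each gene, CRISPRi minus Control, by edgeR; points are estimates and bars 95% confidence intervals, with all 4 libraries (circles) and without control replicate 1 (squares). Every interval spans 0, and that of UHRF1 shrinks from -2.15 to 0.79 to -0.29 to 0.23 when control replicate 1 is left out.

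Control replicate 1 was then set against the other 3 libraries. As this is 1 library, no test applies: the values are ratios of its CPM to the CPM of the summed counts of the others, with an exact binomial 95% interval that covers counting error only. UHRF1 had 33 counts where the level of the other libraries predicts 8.88, a ratio of 3.71 (interval 2.54 to 5.25). DNMT1 had 111 counts where 79.4 are predicted, a ratio of 1.40 (interval 1.15 to 1.69), and MBD3 had 167 where 122 are predicted, a ratio of 1.37 (interval 1.17 to 1.59). The intervals of UHRF1, DNMT1 and MBD3 thus lay above 1. They leave out variation between libraries, and the share of all tested genes with such an interval was not counted. They are therefore no mark of these genes.

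The intervals of DNMT3A and TET2 lay below 1, with the same limit. DNMT3A had 104 counts where 139.7 are predicted, a ratio of 0.745 (interval 0.608 to 0.903). TET2 had 40 where 55.5 are predicted, a ratio of 0.720 (interval 0.514 to 0.982). The intervals of the other 4 genes span 1: MBD1 at 1.23 (interval 0.995 to 1.499), MBD2 at 1.27 (0.797 to 1.93), TET1 at 1.22 (0.802 to 1.78) and TET3 at 0.918 (0.797 to 1.05).

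Only UHRF1 of the 9 genes reached a ratio of 2, and none lay at or under the inverse of 2. Over all tested genes 7.16% reached 2 and 19% lay at or under its inverse. These shares include many genes with too few counts in control replicate 1 to give a stable ratio. Over the 9794 genes with at least 10 predicted counts there, which take in 8 of the 9 but not UHRF1, they were 1.43% and 2.5%. That the library lay outside the range of the others for 9 of 9 genes is no mark of the family, since over all tested genes it lay above all 3 for 39.5% and below all 3 for 50.2%. In bulk RNA, fewer cells of a type and less RNA per cell cannot be told apart.

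Beside these values stand the dividing-cell markers. The ratio of control replicate 1 to the others was 2.92 (interval 2.73 to 3.13) for the 18 S phase genes together and 5.43 (interval 4.94 to 5.96) for the 15 mitosis genes, with 15 of 18 and 15 of 15 at a ratio of 2 or more. The replication licensing factor CDT1 was at 36.0 CPM there against 2.05 to 2.54 CPM in the others, and the helicase subunit MCM7 at 163 against 73.8 to 78.7 CPM. The summed pan-neuronal genes were at 0.861 (interval 0.848 to 0.874). Their part in the ratios of UHRF1, DNMT1 and DNMT3A was not tested.

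The genes closest in profile to UHRF1 were found by the distance between centred log2(CPM + 1) values over the 4 libraries, among 4108 tested genes with a mean CPM within 2-fold of its own. They were RFC3, a subunit of the clamp loader of DNA replication (distance 0.04), NEMP1, a nuclear envelope protein (0.05), and CHAF1A, a subunit of the histone chaperone that assembles chromatin behind the replication fork (0.05). The median distance of the candidates was 1.53. RFC3 was at 24.3 CPM in control replicate 1 and 6.31 to 6.76 CPM in the others, and CHAF1A at 33.9 and 9.05 to 9.74 CPM. For TET2, the gene with the lowest ratio, the closest of 4657 were SH2D3C, CASZ1 and ZBTB5 (0.03, 0.03 and 0.04, median 0.45). With 4 libraries these distances rest mostly on control replicate 1.

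**Figure D4:**
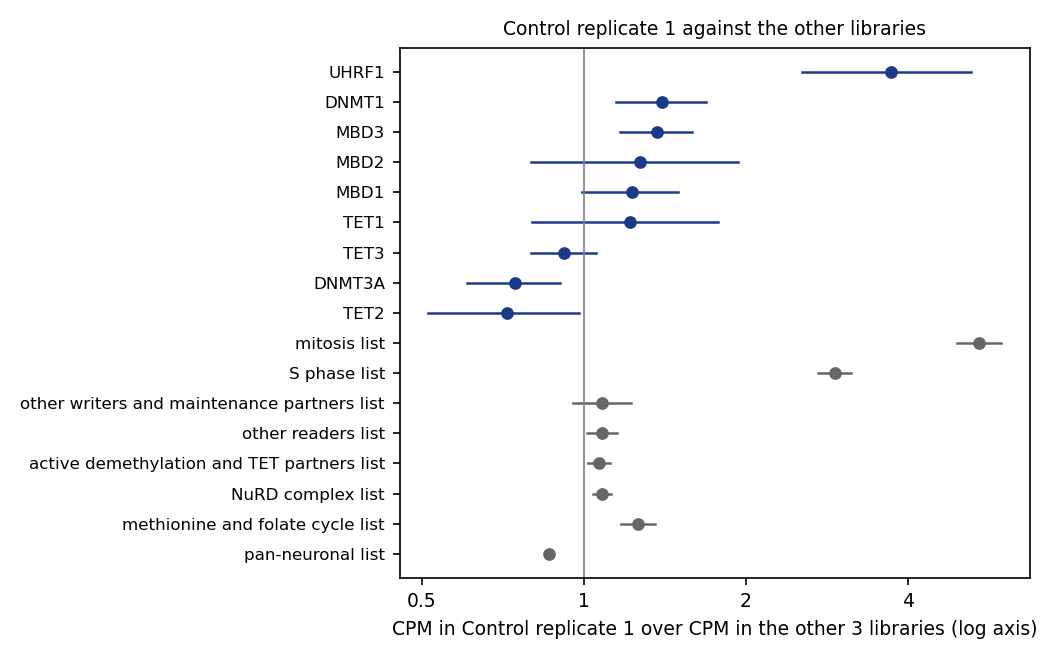
Ratio of CPM in control replicate 1 to CPM in the other 3 libraries (log axis) for the 9 genes (blue) and for summed gene lists (grey); bars are exact binomial 95% intervals that cover counting error only. Among the genes UHRF1 (3.71) is highest, followed by DNMT1 (1.40) and MBD3 (1.37), with DNMT3A (0.745) and TET2 (0.720) lowest. The S phase list is at 2.92, the mitosis list at 5.43 and the pan-neuronal list at 0.861. A link between the genes and the lists was not tested.

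The rest of the pathway was read from lists of other genes. In CRISPRi against Control, edgeR called 0 of 9 tested other writers and maintenance partners, 0 of 11 other readers, 0 of 18 genes of active demethylation and TET partners, 0 of 13 NuRD genes and 0 of 11 genes of the methionine and folate cycle. Their median log2 fold changes were -0.11, -0.01, 0.00, -0.05 and -0.10, against -0.09 for the 9 genes and 0.01 over all tested genes. Without control replicate 1 the 5 lists had medians from -0.05 to 0.02.

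DNMT3B, the second de novo methyltransferase, was low at 7.47 and 7.75 CPM in CRISPRi, against 12.7 and 7.27 CPM with the empty vector (12 counts in control replicate 1), and its interval of the ratio, 0.872 to 2.97, spans 1. DNMT3L, its catalytically inactive cofactor, had 0 counts in every library, which allows up to 0.0669 to 0.0763 CPM in the deep ones and 3.17 CPM in control replicate 1 (a limit of 3 counts). UHRF2, the paralog of UHRF1, was at 21.9 to 23.3 CPM in the deep libraries and 17.99 CPM in control replicate 1, a ratio of 0.794 (interval 0.462 to 1.27) whose interval does not reach that of UHRF1. MBD4, a glycosylase that excises mismatched thymine at CpG, was at 12.7 to 16.4 CPM. The interval of its ratio, 0.417 to 1.41, spans 1.

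Among other partners, PCNA, the replication clamp that also binds DNMT1, was at 48.7 CPM in control replicate 1 and 19.4 to 21.9 CPM in the others (ratio 2.36, interval 1.73 to 3.16). USP7, a deubiquitinase that binds DNMT1 and UHRF1, was at 158 CPM there and 178 to 179 CPM in the others (ratio 0.884, interval 0.748 to 1.04). PARP1, a DNA repair factor, was at 467 CPM there and 287 to 292 CPM in the others (ratio 1.61, interval 1.46 to 1.77). The replication clamp and the repair factor were thus high in the same library as UHRF1, and USP7 was not. The ligases LIG1 (ratio 1.24, interval 0.744 to 1.94) and LIG3 (1.03, interval 0.717 to 1.44) had intervals that span 1. Summed, the other writers and maintenance partners were at 1.08 (interval 0.955 to 1.22). The genes of active demethylation and TET partners were at 1.07 (interval 1.02 to 1.12). Of these 18 genes, 6 lay above all 3 other libraries in control replicate 1 and 9 below all 3. PARP1 alone held 467 of their 1914 CPM there, so the sum does not describe most of them. A shared cause was not tested.

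In NuRD the remodeller CHD4 measured 1101 and 1107 CPM in CRISPRi, against 1049.7 and 1101 CPM with the empty vector, and CHD3 was at 348 to 376 CPM. The deacetylase HDAC1 differed: it measured 5.06 and 5.13 CPM in CRISPRi, against 47.6 CPM (45 counts) and 5.65 CPM with the empty vector, with control replicate 1 at a ratio of 9.04 (interval 6.53 to 12.2). In the cycle that supplies and clears S-adenosylmethionine, the methyl donor, AHCY was at 160 CPM in control replicate 1 and 112 to 113 CPM in the others. MTR, methionine synthase, was at 59.3 CPM there and 37.2 to 41.0 CPM in the others. The list as a whole had a ratio of 1.26 (interval 1.17 to 1.35), and the NuRD list 1.08 (interval 1.04 to 1.12).

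BAZ2A, a bromodomain protein with a methyl-binding-like domain that silences ribosomal RNA genes, was the one gene of these 5 lists to pass when control replicate 1 was left out (log2 fold change 0.44, edgeR adjusted p = 0.00871). It measured 238 and 241 CPM in CRISPRi, against 278 and 177 CPM with the empty vector. The low library was thus control replicate 2 alone, and with all 4 libraries the log2 fold change was 0.15 (edgeR adjusted p = 1).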

How the data were processed

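Polyadenylated RNA of 2 CRISPRi and 2 Control libraries was analysed. The submitters' processing notes name hg38, edgeR and limma; the aligner, counter and strand setting are not given in the sources used here. For each gene the authors deposited a whole-number count and an FPKM value; the unit of the latter was read from the values, since the files have no header. Between 602 and 954 rows per library hold a count but an FPKM of 0, so FPKM served only for levels between genes.

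Counts were summed per symbol over all contigs and tested by the robust quasi-likelihood F test of edgeR 4.0.16 (R 4.3.3) after TMM scaling and filterByExpr, with group as the only term and a Benjamini-Hochberg threshold of 0.05. Standard errors and intervals derive from the F statistic; edgeR raises some p-values to a Poisson bound. CPM uses total counts. An exact permutation test of 2 against 2 cannot give a p under 0.333 and was not used. The fit was tested on simulated counts with known changes. Ratios for control replicate 1 are conditional binomial estimates (scipy 1.17.1).

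The genes and lists were chosen with earlier results of these data known. Named genes are the 9, their closest relatives, and genes taken from each list by highest level or smallest p, not all of them reported. Alternatives were other scalings, filters, DESeq2 1.42.0, limma-voom 3.58.1, a replicate block, primary chromosomes only, an adjusted p under 0.1 and each library left out.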

Additional observations from a re-analysis of the deposited data

How the results depend on the processing

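The count of 0 among the 9 genes held under every setting run except without control replicate 2, giving 0 to 4 when single libraries were dropped. In that fit, where control replicate 1 stands alone for its group and is assumed to vary like the CRISPRi libraries, DNMT1 (-0.48), MBD3 (-0.44) and UHRF1 (-1.87) passed as lower and DNMT3A (0.47) as higher (edgeR adjusted p = 0.0185, 0.00836, 0.00366 and 0.0155), beside 4.97% of genes lower and 3.61% higher. Over all tested genes the count of higher genes moved from 0 to 1 (DESeq2), 17 (replicate block) and 2 to 580 (single libraries dropped). The count of lower genes moved from 4 to 11 (DESeq2), 2 (limma-voom), 25 (replicate block) and 15 to 798 (single libraries dropped). Signs turned for TET2 (-0.070) and TET3 (-0.0025) with limma-voom, and without control replicate 1 (-0.094 and -0.021); with single libraries dropped they ran from -0.094 to 0.47 and from -0.021 to 0.14, and the cause was not tested. The other 100 values of single genes that were run kept direction and call. The labels give no pairing by replicate number, and replicate differences correlated at -0.03 between the groups over 15708 genes. The replicate block called 0 of the 9 genes. In that fit the log2 fold change of UHRF1 was -0.85, with an interval of -1.56 to -0.15 (edgeR unadjusted p = 0.0174). All 63 alternative ratios of control replicate 1 stayed within the main counting interval, at 3.64 to 3.75 for UHRF1. Each of them keeps the gene's count in that library and changes only totals or the pooled libraries. They therefore do not bear on the error of that count. Without control replicate 1 the mean FPKM fell from 3.93 to 2.33 for UHRF1 and from 2.50 to 2.38 for TET1, so that they changed places. All 9 shifts were under 1 SD of the 4 libraries, but dropping 1 of 4 values cannot move a mean that far. The SD is therefore no measure of stability here. Levels by counts per kilobase of row length were not run, as the files give the span of the locus and not a transcript length. The depth of control replicate 1 limits what can be said of UHRF1, MBD2 and TET1, with 33, 22 and 27 counts there.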

Other observations

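Germline genes whose promoters are commonly methylated in somatic cells were listed from general knowledge. Of 16 listed genes, 8 had 0 counts in all 4 libraries and 2 passed the filter on low counts. At 0 were DAZL, DDX4, SYCP1, SYCP3, TEX101, SYCE1, MAGEA1 and CTAG1B. MAGEA4, a cancer-testis antigen of the X chromosome, stood apart at 99.5 and 102 CPM in CRISPRi, against 84.7 and 104 CPM with the empty vector (replicates 1 and 2), a mean of 55.1 FPKM. It belongs to a multigene family, and how the counting divided reads among its members was not tested. STAG3, a meiotic cohesin subunit, measured 1.41 and 1.68 CPM in CRISPRi and 2.59 CPM in control replicate 2, with 0 counts in control replicate 1.

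Of 10 pluripotency genes listed, L1TD1, TDGF1, ESRG, ZFP42 and UTF1 had 0 counts in all 4 libraries, and the transcription factor POU5F1 was at 0.201 to 0.305 CPM in the deep libraries. The RNA-binding protein LIN28A, at 19.7 to 21.0 CPM in the deep libraries and 13.8 CPM in control replicate 1, and the zinc finger factor SALL4, at 15.3 to 16.3 and 8.47 CPM, had the highest levels per transcript length of the list. The summed list was at 36.4 to 36.6 CPM in the deep libraries and 22.2 CPM in control replicate 1, a ratio of 0.609 (exact binomial 95% interval 0.377 to 0.933). Its 21 counts in control replicate 1 were those of LIN28A (13) and SALL4 (8), and 8 of the 10 genes were at 0 there. The ratio therefore describes LIN28A and SALL4 and cannot speak to the rest of the list in that library.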
